A study of Homo sapiens and Homo sapiens
Mus musculus and Mus musculus with 200 samples.

Results

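Regions of open chromatin that carried transcription factor AP-2alpha (AP2a, encoded by TFAP2A) but no TWIST1 were described in human cranial neural crest cells (hCNCC). They were chosen by peak lists: a region of the H3K27ac count tables was included when it overlapped a peak in both AP2a lists, made with antibodies from Novus Bio and from Cell Signaling, and no peak in any of 3 TWIST1 lists from cells with unaltered TWIST1. Those 3 lists were both WT libraries at 0 h and 1 library made with the Abcam antibody. The rule was met by 6299 of the 213151 regions counted (2.955%), and by 32.47% of the 19400 regions with AP2a in both lists. The AP2a and TWIST1 calls that chose the regions are therefore given as descriptions only. H3K27ac counts took no part in the choice.

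The hCNCC were differentiated from the human embryonic stem cell line H9. H3K27ac, the acetylation of lysine 27 on histone H3, was measured by ChIP-seq in 6 lines after 0, 3 and 24 h of dTAGV-1 at 500 nM, with 2 libraries per line and time and 36 in all. In TWIST1FV, ALX1FV, PRRX1FV and MSX1FNV the named factor carried a degradation tag that dTAGV-1 acts on, ALX1FV ALX4- also lacked ALX4, and WT was unedited and received the same compound. The TWIST1FV libraries came from 1 clone, c64. In ALX1FV, ALX1FV ALX4- and PRRX1FV, replicates 1 and 2 came from different clones at every time, so that clone and replicate cannot be told apart there. All MSX1FNV libraries carry the clone label c93/69. Mouse O9-1 chromatin, about 10%, was added to the WT and TWIST1FV samples as a spike-in. Line and clone cannot be told apart when an edited line is compared with WT, and for the 4 lines without spike-in neither can its handling. Nothing in the labels says that the 2 libraries of WT, TWIST1FV or MSX1FNV came from separate cultures, so their spread may be technical.

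AP-2alpha is a transcription factor that binds GC-rich palindromes as a dimer and is needed for the formation of neural crest and the face. TWIST1 is a basic helix-loop-helix factor that binds E-boxes and maintains the mesenchymal state of cranial crest cells, where ALX, PRRX and MSX homeodomain proteins are also expressed. H3K27ac marks active promoters and enhancers and is deposited by the coactivators EP300 and CREBBP.

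The AP2a palindrome GCCNNNGGC was searched from 100 bp before to 100 bp after the Novus Bio summit of each region. The 8 windows below are shown because they lie at the strongest AP2a site whose summit was inside its region (ADD1) and at the regions with the largest H3K27ac changes described later. Each is the hg38 reference, plus strand, 5′ to 3′, named by the nearest start site, with the palindrome in capitals.
ADD1: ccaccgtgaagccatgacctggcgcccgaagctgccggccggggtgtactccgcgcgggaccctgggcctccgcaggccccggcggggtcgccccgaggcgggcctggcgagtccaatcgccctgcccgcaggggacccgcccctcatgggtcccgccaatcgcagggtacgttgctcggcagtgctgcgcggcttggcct
MCTP2: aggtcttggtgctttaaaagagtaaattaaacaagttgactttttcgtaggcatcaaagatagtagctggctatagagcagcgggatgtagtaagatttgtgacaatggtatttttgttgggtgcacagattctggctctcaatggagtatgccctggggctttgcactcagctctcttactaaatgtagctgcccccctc
LYZL2: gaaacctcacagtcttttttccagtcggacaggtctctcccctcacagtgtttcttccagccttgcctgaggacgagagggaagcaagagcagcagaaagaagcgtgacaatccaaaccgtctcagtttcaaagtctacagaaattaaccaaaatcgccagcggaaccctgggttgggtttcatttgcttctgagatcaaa
HS6ST1, farther region: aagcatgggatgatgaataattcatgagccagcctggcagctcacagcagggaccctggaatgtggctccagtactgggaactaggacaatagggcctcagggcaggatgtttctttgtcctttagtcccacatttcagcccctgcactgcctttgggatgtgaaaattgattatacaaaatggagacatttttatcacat
PDE1C: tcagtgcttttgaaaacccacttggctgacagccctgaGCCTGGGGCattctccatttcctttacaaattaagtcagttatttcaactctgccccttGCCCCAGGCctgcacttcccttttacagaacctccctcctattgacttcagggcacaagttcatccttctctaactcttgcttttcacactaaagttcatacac
DHFR2: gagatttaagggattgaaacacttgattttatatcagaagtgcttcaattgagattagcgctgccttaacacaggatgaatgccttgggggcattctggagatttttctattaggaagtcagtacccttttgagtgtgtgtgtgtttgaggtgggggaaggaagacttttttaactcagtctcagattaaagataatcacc
HS6ST1, nearer region: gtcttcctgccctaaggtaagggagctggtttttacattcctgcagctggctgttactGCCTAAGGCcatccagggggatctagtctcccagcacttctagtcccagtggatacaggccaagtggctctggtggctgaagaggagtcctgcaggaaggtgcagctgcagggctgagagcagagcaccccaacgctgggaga
RHOU: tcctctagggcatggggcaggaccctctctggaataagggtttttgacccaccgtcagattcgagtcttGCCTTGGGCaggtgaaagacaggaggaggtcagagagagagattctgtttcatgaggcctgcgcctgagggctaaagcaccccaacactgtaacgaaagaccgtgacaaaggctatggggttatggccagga
The windows at PDE1C, RHOU and the HS6ST1 region nearer to its gene held the palindrome, and the other 5 did not, ADD1 included. In position these were chr4:2843618-2843818 for ADD1, chr15:94617111-94617311 for MCTP2, chr10:30611959-30612159 for LYZL2 and chr2:128638986-128639186 for the farther HS6ST1 region. The rest were chr7:31935264-31935464 for PDE1C, chr3:94179726-94179926 for DHFR2, chr2:128543716-128543916 for the nearer HS6ST1 region and chr1:228872260-228872460 for RHOU.

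Among all 6299 regions, 2899 windows held GCCNNNGGC (46.02%, Wilson 95% interval 44.8 to 47.26), against 10.93% of windows of the same length 1000 bp away. The 6299 regions had 5719 distinct Novus Bio summits, so some windows were counted more than once. The interval treats all windows as independent and is too narrow to that extent. The palindrome reads the same on both strands, so one search covers both. Near start sites the share was 49.36%, with 11.29% in the flanks, and in distal regions 35.56%, with 9.81% in the flanks. Regions with both factors, meaning TWIST1 in both WT lists at 0 h and AP2a in both AP2a lists, had it in 35.67% of summit windows. In windows of the same length at the centre of the regions, the share was 33.43% for AP2a without TWIST1 and 12.65% for all regions counted. When a spacer of 4 or 5 bases was also allowed, the share rose to 81.38% at the summits and 24.2% in the flanks, so the looser form is common without AP2a as well.

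**Figure D1:**
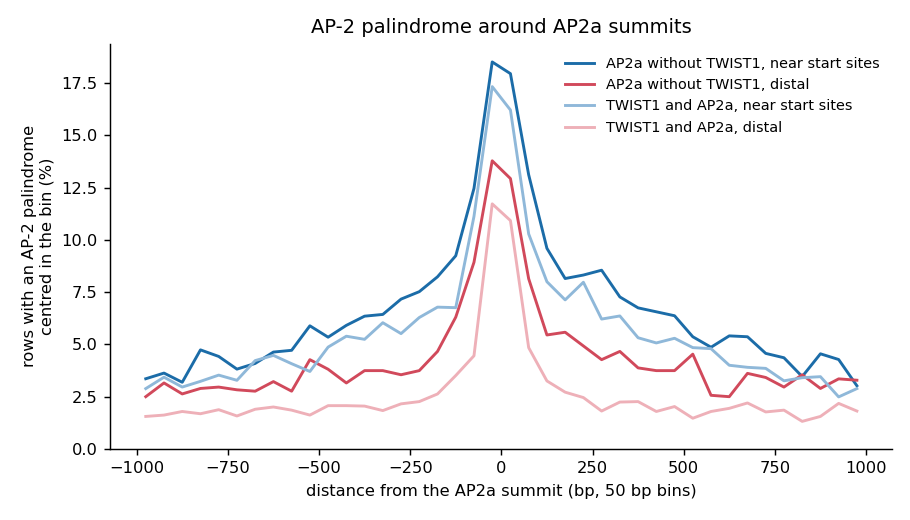
Share of regions with GCCNNNGGC centred in each 50 bp bin (y, %) by distance from the AP2a summit (x, bp), for regions with AP2a and no TWIST1 and for regions with both, near and beyond 1000 bp from a start site. In regions without TWIST1 the share peaked in the bins beside the summit, at 18.51% near start sites and 13.78% in distal regions.

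The E-box form CATCTG, the related form CATATG and the third form, CAGCTG, searched on both strands, were found in 15.13% of the AP2a summit windows and in 22.33% of their flanks. Regions with both factors had one in 42.3% of summit windows. At region centres the shares were 16.15% for AP2a without TWIST1 and 41.27% for all regions. The absence of TWIST1 peaks was part of the rule, so these shares describe the selection. The windows were rich in G and C, with a median GC content of 70.1% against 52.2% in the flanks and 49.3% at the centres of all regions. Their median ratio of observed to expected CpG was 0.766, with 0.807 near start sites and 0.393 in distal regions, against 0.201 for all regions. GC content and the palindrome, itself made of G and C, move together here, and the part of one in the other was not tested.

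Most of these regions lay at promoters. Of the 6299, 4775 were within 1000 bp of an annotated start site (75.81%, Wilson 95% interval 74.73 to 76.85), against 18.88% of all regions, 46.41% of those with both factors and 13.39% of those with neither. The other 1524 are called distal here: 753 were intronic (49.41%), 628 intergenic (41.21%), 76 exonic and 67 in an untranslated region. Their median distance to a start site was 7387 bp, against 19031 bp for all distal regions counted. Chromosome 19 held 486 of the 6299 (7.716%) and 2.408% of all regions.

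The nearest start sites belonged to 4758 genes, of which 3639 were nearest to 1 region and 30 to 5 or more. BCOR, a Polycomb-associated corepressor gene, and CAMTA1, a calmodulin-binding transcription activator gene, each had 8, out of 166 and 125 counted regions nearest to them. GRID1 and GSE1 had 7 each. PIP5K1C, which encodes a phosphatidylinositol phosphate kinase, had 6 of only 10 counted regions, PALM 6 of 12, SKI, a repressor of TGF-beta signalling, 6 of 15 and the imprinted locus GNAS 6 of 20. WNT3, SIX3, IRX4, PRDM14 and RREB1 were among the genes with 5. Nearest gene is a label of position only.

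The edge of the rule was not sharp. A TWIST1 peak of 1 of the 3 lists lay within 100 bp of 304 regions (4.826%) and within 500 bp of 1102 (17.49%), and the median distance was 5981 bp. On the other side, 2819 of the 13101 AP2a regions that overlapped TWIST1 (21.52%) did so in 1 of the 3 lists only, and 248 by no more than 100 bp. The authors' AP2a −log10 p had a median of 13.64 in the Novus Bio list (10th to 90th percentile 5.841 to 42.33) and 15.29 in the Cell Signaling list, against 18.38 and 21.57 in regions with both factors. The Novus Bio summit lay inside 4723 regions (74.98%). Neither list's summit lay inside 1274 (20.23%), whose overlap was with the flank of a peak. Each AP2a list came from 1 library, so it has no replicate of its own.

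The other 6 hCNCC lists of TWIST1 peaks took no part in the rule. Of the 6299 regions, 2066 (32.8%) overlapped a peak in 1 or more of them, 217 (3.445%) in 3 or more and 0 in all 6. The WT libraries at 3 h covered 555 (8.811%) and 940 (14.92%), the ALX1FV ALX4- libraries at 0 h 870 (13.81%) and 517 (8.208%), and the TWIST1FV libraries at 0 h 162 (2.572%) and 40 (0.635%). Of all regions counted, these lists covered 24.01% and 23.9%, 23.16% and 19.56%, and 15.87% and 12.14%, in the same order. The TWIST1FV lists at 0 h were shorter, with 33479 and 25034 peaks against 55669 and 53044 in WT at 3 h. No region was covered at 3 h in TWIST1FV, where the lists held 835 and 739 peaks in all. In RS4;11, a human leukaemia line, the TWIST1 list covered 3656 regions (58.04%), with 66.66% near start sites and 31.04% in distal regions, against 18.01% of all regions. The peak summit lay inside the region in 39.93%. What the RS4;11 signal at these promoters stands for was not tested.

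H3K27ac levels were compared as CPM, counts relative to the library's total with scaling by the trimmed mean of M-values (TMM). In WT at 0 h the median over the 6299 regions was 6.75 CPM per kb (10th to 90th percentile 0.881 to 39.5), against 2.13 for all regions counted. In distal regions it was 2.88, and near start sites the 10th and 90th percentiles were 1.03 and 43.8. Library totals ran from 5137169 to 9173063 counts. Start sites of the crest genes TFAP2A, SOX9, NR2F1, NR2F2, TWIST1, PRRX1, ALX1 and SNAI2 had at least 34.1 CPM per kb in every library. Of the markers of other cells, the neural plate gene PAX6 was at 0 to 2.94, SOX1 at most 1.1 and SIX3 at most 1.19, the epithelial genes CDH1 and GRHL2 were at most 2.37 and 1.81, and EPCAM was at 2.3 to 12.8. LIN28A, a gene of stem and early progenitor cells, was at 120 to 195, and POU5F1, NANOG and KRT5 had no counted region at their start sites.

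The regions with the highest level per kb in WT at 0 h were the promoters of BRD2 (260 CPM per kb), which encodes a reader of acetylated histones, FZD7 (215), a Wnt receptor gene, HNRNPR (213) and HNRNPL (154), which encode RNA-binding proteins, and SAE1 (198), a subunit of the SUMO-activating enzyme. BRD2 had 127 and 134 CPM in the WT libraries and FZD7 99 and 117. Level and AP2a strength went only weakly together, with a Spearman coefficient of 0.255 across the regions, which are not independent replicates. The strongest AP2a site with its summit inside, at ADD1 (chr4:2843286-2844074, −log10 p of 211.8 and 245.6), had 27.5 and 20.5 CPM in WT at 0 h. The DDX17 promoter, with AP2a −log10 p of 202.2 and 160.7, had 57.4 and 53.4. Both were far below BRD2. At PRPSAP1, with a Novus Bio value of 221.5, the summit lay outside the region.

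**Figure D2:**
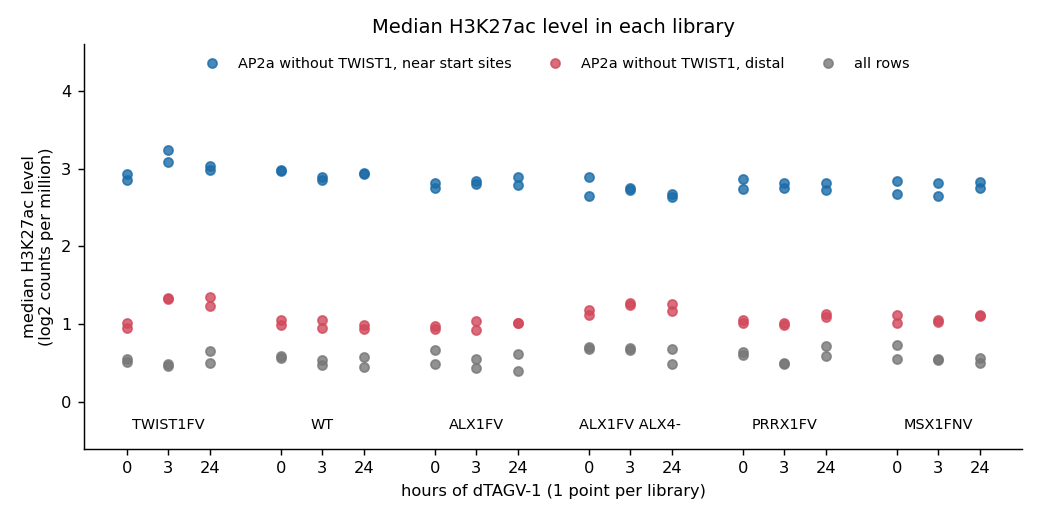
Median H3K27ac level (y, log2 CPM) in each library, 1 point per library, by line and hours of dTAGV-1 (x), for AP2a regions without TWIST1 near start sites, for those in distal positions and for all regions counted. The TWIST1FV distal points rise from 1.012 and 0.955 at 0 h to 1.340 and 1.318 at 3 h, while the WT points stay close to their 0 h values.

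The median log2 CPM over the 6299 regions in WT was 2.340 and 2.351 at 0 h, 2.287 and 2.292 at 3 h, and 2.336 and 2.344 at 24 h. In TWIST1FV it was 2.212 and 2.365 at 0 h. After dTAGV-1 it reached 2.566 and 2.674 by 3 h and 2.495 and 2.552 by 24 h. These later TWIST1FV libraries thus lay above both 0 h libraries and did not overlap them. The share of all counts that fell in these regions was 6.38% and 7.1% at 0 h, 7.84% and 8.69% at 3 h, and 8.01% and 8.6% at 24 h in TWIST1FV, and stayed between 6.69% and 7% in WT. In the other 4 lines the medians ran from 2.154 to 2.370 with no time point set apart. At 0 h ALX1FV had 2.240 and 2.255, ALX1FV ALX4- 2.370 and 2.210, PRRX1FV 2.212 and 2.332, and MSX1FNV 2.156 and 2.296. A share of counts can rise where counts elsewhere fall, and more acetylation here cannot be told apart from less at other regions by these values alone.

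Loss of TWIST1 was followed by higher H3K27ac at a small group of these regions, most of it distal. Of 5230 regions tested in TWIST1FV, 90 rose and 3 fell by 3 h of dTAGV-1 (edgeR quasi-likelihood test, false discovery rate under 0.05). By 24 h, 200 had risen and 24 had fallen. Among all regions tested, 1.01% were called higher and 4.28% lower at 3 h, and 4.28% higher and 9.49% lower at 24 h. The AP2a regions without TWIST1 were called higher in 1.72% and 3.82% and lower in 0.0574% and 0.459%. The share called higher was thus near that of all regions at 24 h, and the share called lower was far below it at both times. Their median log2 fold change was 0.223 at 3 h and 0.172 at 24 h, against 0.023 and 0.033 over all regions tested. Regions with neither factor had medians of 0.209 and 0.324, and regions with TWIST1 but no AP2a −0.682 and −0.960. A positive median was thus not particular to the AP2a regions without TWIST1.

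Position separated the responses. Of 1134 distal regions tested, 49 rose at 3 h (4.32%) and 127 at 24 h (11.2%), while 2 and 6 fell. Of 4096 near start sites, 41 (1%) and 73 (1.78%) rose and 1 and 18 fell. Distal regions with neither factor were called higher in 5.89% and lower in 0.632% at 24 h, and distal regions with both in 4.57% and 35.7%. Near start sites these shares were 3.53% and 0.581% with neither, and 1.96% and 9.31% with both. At 3 h, regions with neither were called higher in 1.03% when distal and 0.877% near start sites. Those with both were called higher in 1.59% and 1.13%. More rises in distal positions were thus not particular to the AP2a regions without TWIST1. No test of these shares against each other was made, since the regions of 1 library are not independent. Scaling by library size in place of TMM moved the median of all regions to 0.111 at 3 h and 0.158 at 24 h and of the AP2a regions to 0.310 and 0.297, so the latter stayed above the former. With that scaling the calls were 126 higher and 3 lower at 3 h and 291 and 19 at 24 h, and over all regions the share of calls that were higher went from 19% to 27.5% and from 31.1% to 40.2%.

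**Figure D3:**
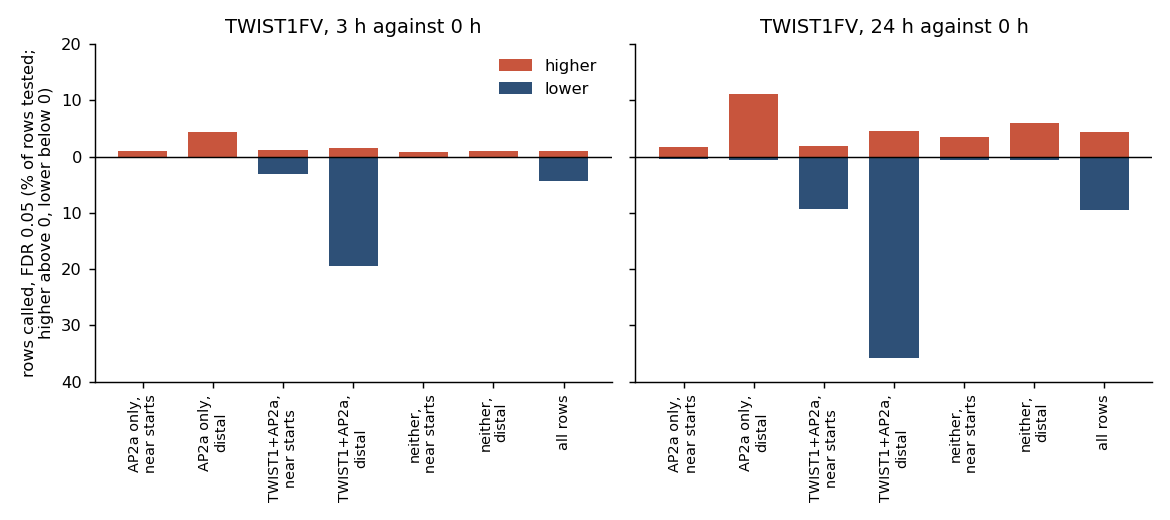
Regions called higher (above 0) or lower (below 0) in TWIST1FV at 3 h and 24 h against 0 h, as a percentage of those tested (y), by class and position (x). Distal AP2a regions without TWIST1 reach 11.2% higher at 24 h, and distal regions with both factors 35.7% lower.

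The counts depended on single libraries. Without TWIST1FV 0 h replicate 1 the calls fell to 40 at 3 h and 116 at 24 h, and without 0 h replicate 2 to 43 and 149. Leaving out 24 h replicate 2 gave 148 at 24 h. In a model of TWIST1FV and WT together, the change differed between the lines at 36 of 5540 regions at 3 h (34 more positive in TWIST1FV, 2 more negative) and at 94 at 24 h (76 and 18). Over all regions the same test called 0.305% and 2.48% at 3 h, and 1.49% and 5.85% at 24 h. Of the more positive, 21 at 3 h and 51 at 24 h were distal. Leaving out WT 3 h replicate 1 lowered the 36 to 10, leaving out WT 0 h replicate 2 to 17, WT 0 h replicate 1 to 19, WT 3 h replicate 2 to 15 and TWIST1FV 0 h replicate 1 to 17. The 94 became 51 without WT 0 h replicate 2, 52 without WT 24 h replicate 1, 61 without WT 0 h replicate 1 and 62 without TWIST1FV 0 h replicate 1.

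The largest rises at 24 h were in regions far from start sites. The region in an intron of PDE1C, a calcium-dependent cyclic nucleotide phosphodiesterase gene (chr7:31935083-31936115, 134808 bp from the start site), had 9.3 and 7.97 CPM at 0 h, 31.1 and 32.1 at 3 h and 57.2 and 49.4 at 24 h in TWIST1FV. In WT it stayed between 6.87 and 10, so the TWIST1FV libraries at both later times lay above all WT libraries. Its log2 fold change at 24 h was 2.63 ± 0.22 (SE, n = 2 against 2; edgeR adjusted p = 6.26e-07). The farther of 2 regions beyond HS6ST1, a heparan sulfate 6-O-sulfotransferase gene (chr2:128638307-128639587, intergenic, 320079 bp), went from 5.23 and 4.52 through 12.1 and 19.2 to 30.6 and 50.1 CPM, a log2 fold change of 3.04 ± 0.31 (edgeR adjusted p = 3.96e-06). The ALX1FV ALX4- libraries at 0 h already had 34.1 and 25 CPM there. The nearer region (chr2:128543517-128544017, 224899 bp) had 1.45 and 0.714 CPM at 0 h, 4.24 and 5.97 at 3 h and 4.34 and 7.54 at 24 h. It rose by 2.46 ± 0.50 at 24 h (edgeR adjusted p = 0.00253), and its test of difference from WT did not pass at 24 h (edgeR adjusted p = 0.143).

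The other distal regions among the 8 largest rises started from a few CPM. At MCTP2, which encodes a membrane protein with C2 domains (chr15:94616725-94617526, intergenic, 261152 bp), TWIST1FV had 1.74 and 1.67 CPM at 0 h, 5.37 and 4.3 at 3 h and 15.8 and 15.9 at 24 h. Its log2 fold change at 24 h was 3.20 ± 0.37 (edgeR adjusted p = 1.45e-05), and the difference from the WT change was 1.87 with an adjusted p of 0.0823 (edgeR), the WT libraries having gone from 0.737 and 2.11 to 2.45 and 4.53. At LYZL2, a lysozyme-like gene (chr10:30612007-30612507, intronic, 17496 bp), the values were 1.74 and 1.9, then 4.52 and 6.11, then 11.4 and 22.5 CPM, with a log2 fold change of 3.19 ± 0.41 (edgeR adjusted p = 4.52e-05). In neither did a 24 h library overlap a 0 h library. The region beyond DHFR2, a dihydrofolate reductase gene (chr3:94179579-94180079, 116440 bp), rose by 2.55 ± 0.38 at 24 h (edgeR adjusted p = 0.000181), from 2.18 and 2.86 to 11.2 and 18.7 CPM. An intronic region of EXTL3, a heparan sulfate glycosyltransferase gene, rose by 2.49 ± 0.51 (edgeR adjusted p = 0.00276), from 1.16 and 1.9 to 6.16 and 11.6 CPM. The one promoter among the 8 largest rises was that of SFTA2, a surfactant-associated gene (chr6:30954746-30956030), with 4.65 and 4.52 CPM at 0 h, 8.76 and 14.7 at 3 h and 35.6 and 28.3 at 24 h. It rose by 2.80 ± 0.30 (edgeR adjusted p = 7.54e-06). All 8 kept their calls under each alternative run.

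Fewer regions fell. The intergenic region 136808 bp from RHOU (chr1:228872037-228872537), had 50 and 37.2 CPM at 0 h, 21.6 and 10.6 at 3 h and 11 and 12.5 at 24 h in TWIST1FV, and 41.1 to 49 in the WT libraries. All 4 later TWIST1FV libraries lay below every WT library. The log2 fold change was −1.48 ± 0.29 at 3 h (edgeR adjusted p = 0.00574) and −1.90 ± 0.30 at 24 h (edgeR adjusted p = 0.000282). The promoter of MAP1LC3C, an autophagy gene (chr1:241998319-241998819), had 28.8 and 15.2 CPM at 0 h, 14.8 and 8.61 at 3 h and 7.76 and 3.64 at 24 h. Its fold change at 24 h was −1.93 ± 0.40 on the log2 scale (edgeR adjusted p = 0.00291). The promoter of ARHGAP29 (chr1:94236666-94237881), had 6.98 and 10.2 CPM at 0 h, 6.5 and 9.16 at 3 h and 1.94 and 2.86 at 24 h. It fell by 1.85 ± 0.40 at 24 h (edgeR adjusted p = 0.00379), and without TWIST1FV 0 h replicate 2 the adjusted p was 0.0503. An intronic region of LAMA1, a laminin gene (chr18:7116176-7116676), fell by 1.45 ± 0.36 (edgeR adjusted p = 0.00992). The LAMA1 call was lost without 0 h replicate 2 (edgeR adjusted p = 0.174) and without 24 h replicate 2 (0.0662).

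The other 4 of the 8 largest falls were less stable. RNF213 fell by 1.82, SGO1 by 1.62, TAFA5 by 1.55 and MGLL by 1.46 at 24 h on the log2 scale, all from levels under 6 CPM. All 4 calls were lost with DESeq2, with adjusted p of 0.0507, 0.0707, 0.137 and 0.0931. Leaving out any 1 of the 4 libraries also ended the calls of SGO1, TAFA5 and MGLL. For SGO1 the edgeR adjusted p was 0.0634 without 0 h replicate 1, 0.122 without 0 h replicate 2, 0.135 without 24 h replicate 1 and 0.104 without 24 h replicate 2. For TAFA5 the same values were 0.0687, 0.313, 0.166 and 0.235, and for MGLL 0.196, 0.074, 0.0924 and 0.249. RNF213 lost its call without 0 h replicate 1 (edgeR adjusted p = 0.218), 24 h replicate 1 (0.0531) and 24 h replicate 2 (0.178).

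**Figure D4:**
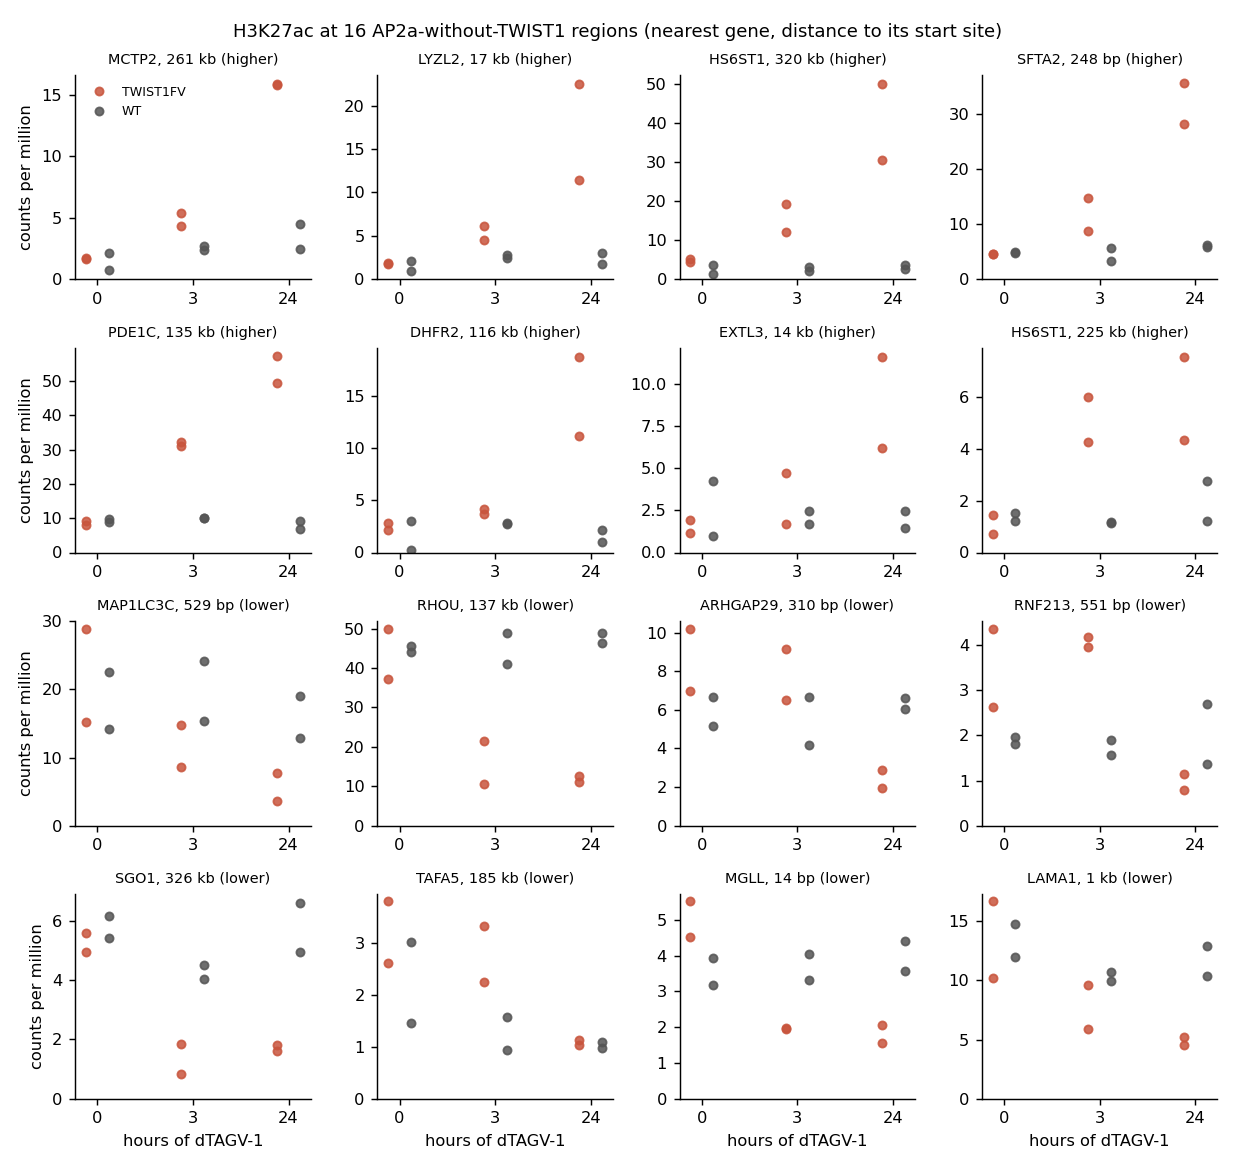
H3K27ac (y, CPM) at the 8 regions with the largest rise and the 8 with the largest fall in TWIST1FV at 24 h, by hours of dTAGV-1 (x), 1 point per library, with WT beside TWIST1FV. At PDE1C the TWIST1FV points climb to 57.2 and 49.4 while WT stays at or below 10, and at RHOU they fall to 11 and 12.5 while WT stays at 41.1 or more.

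At 3 h the largest rises were from low levels. The promoter of CRMP1, a collapsin response mediator gene (chr4:5890063-5891515), went from 0.291 and 0.952 CPM to 3.11 and 4.58, a log2 fold change of 2.50 ± 0.57 (edgeR adjusted p = 0.0154), and lost its call without 0 h replicate 1 (0.159) or 3 h replicate 2 (0.0608). The region nearest to APBA2, an adaptor gene, in an intron of ENTREP2 (chr15:29127820-29128320), went from 0.582 and 0.952 to 3.11 and 4.44 CPM, a change of 2.21 ± 0.53 (edgeR adjusted p = 0.0203). It lost its call without either 0 h library (0.17 and 0.0636 for replicates 1 and 2) or 3 h replicate 2 (0.104). GADL1 (chr3:30894485-30895308) went from 1.89 and 0.952 to 7.34 and 6.11 CPM at 3 h and back to 5.94 and 1.82 at 24 h. The log2 fold change at 3 h was 2.21 with an SE of 0.55 (edgeR adjusted p = 0.0246), and it did not pass without 0 h replicate 2 (0.17). The nearer HS6ST1 region also rose at 3 h (edgeR adjusted p = 0.0153), a call likewise lost without 0 h replicate 2 (0.167). Only 3 regions fell at 3 h: RHOU above, SGO1 and SEMA5A. SEMA5A, a semaphorin gene, had 20.6 and 16.4 CPM at its promoter (chr5:9545367-9545867) at 0 h and 9.89 and 6.94 at 3 h, a fall of 1.18 ± 0.30 (edgeR adjusted p = 0.0294) that was lost without 0 h replicate 1 (0.249) or 3 h replicate 2 (0.206). SGO1 fell by 2.01 ± 0.49 (edgeR adjusted p = 0.0206), lost without either 0 h library (0.0551 and 0.0798 for replicates 1 and 2) or 3 h replicate 2 (0.184). CRMP1, GADL1, RHOU, SGO1 and SEMA5A overlapped a TWIST1 peak in an hCNCC list outside the rule, while APBA2 and the nearer HS6ST1 region did not.

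Of the 200 regions that rose at 24 h, 127 (63.5%) were distal, against 1524 of all 6299. GCCNNNGGC was held by 58 of the 200 (29%), against 46.02% of all 6299. A TWIST1 peak in 1 or more of the 6 lists outside the rule overlapped 92 (46%), against 32.8%. These shares were not tested against each other. PDE1C, the farther HS6ST1 region and the KCTD15 region described below overlapped a peak in those lists. MCTP2, LYZL2, SFTA2, DHFR2, EXTL3, the nearer HS6ST1 region and the PAX7 region described below did not. Among distal regions, 16.8% of those in such a list were called higher and 8.31% of those in none. By GC content, 7.81% of the lowest tertile were called higher, 2.09% of the middle and 1.23% of the highest. Distal regions with the palindrome were called higher in 8% and those without in 12.9%. Of intronic distal regions 79 of 590 rose (13.4%), and of intergenic ones 44 of 445 (9.89%). AP2a strength showed less of a gradient, with 4.34%, 4.9% and 2.41% from the weakest to the strongest tertile. Of the 24 regions that fell, 10 (41.7%) lay within 500 bp of a TWIST1 peak, against 32 of the 200 that rose (16%), and 14 (58.3%) held the palindrome. In the 6 lists outside the rule, a TWIST1 peak overlapped 13 of the 24 (54.2%). RHOU, MAP1LC3C, SGO1 and MGLL were among them, and ARHGAP29, RNF213, TAFA5 and LAMA1 were not. These properties overlap with each other, and the part of each was not tested.

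Called regions rarely shared a gene. The 224 called regions were nearest to 207 genes. A pair of called regions was nearest to each of HS6ST1, APBA2, BAHCC1, BCL9L, CMKLR2, FAM110B, FAM110D, JUP, KLHL29, MEF2C, PAOX, PIP5K1C, SHB and SMIM21. At FOXP1, a forkhead transcription factor gene, both fell, while RHOU and RNF213 had 1 in each direction. Of the 90 regions that rose at 3 h, 69 (76.7%) were also called higher at 24 h, both measured against the same 0 h libraries.

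Regions nearest to neural crest genes were taken from 7 gene lists. In the list of AP-2 family genes, coactivators and inhibitors, 5 of 12 genes had 12 regions, of which 9 were tested, 1 rose at 3 h, 2 rose at 24 h and 0 fell. For neural crest specifiers, 12 of 21 genes had 29 regions, 22 were tested, and 1 rose at each time. For the facial mesenchyme list, 17 of 28 genes had 31 regions, 13 were tested, and at 24 h 2 rose and 1 fell. The neuronal list had 12 regions at 6 of 16 genes, with 7 tested, and the epithelium list 7 regions at 7 of 17 genes, with 4 tested, and 1 rose at 24 h in each. For melanocyte genes, 2 of 11 had 3 regions, of which 2 were tested and 1 rose at 24 h. In the list of pluripotency and neural plate genes 3 of 9 genes had 7 regions, of which 3 were tested and 0 were called. These counts stand beside 4.28% of all regions called higher and 9.49% called lower at 24 h. The median log2 fold change at 24 h was 0.033 over all regions tested, 0.172 over the AP2a regions without TWIST1 and 0.413 over the distal ones among them. In the lists it was 0.244, 0.273, 0.612, 0.619, 0.713, 0.477 and −0.222 in that order.

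The AP2a inhibitor gene KCTD15 had an intergenic region 77225 bp away (chr19:33883791-33884506) with 31.7 and 29 CPM at 0 h, 62.8 and 57.2 at 3 h and 64 and 68.4 at 24 h in TWIST1FV. WT stayed between 27 and 34.7, below all 4 later TWIST1FV libraries. The log2 fold change was 0.94 ± 0.17 at 3 h (edgeR adjusted p = 0.00354) and 1.13 at 24 h with an SE of 0.17 (edgeR adjusted p = 0.000244). The 3 h call was lost without 0 h replicate 2 (edgeR adjusted p = 0.068). At an intron of PAX7, a paired-box gene that specifies neural crest (chr1:18646489-18647460), TWIST1FV had 7.56 and 9.28 CPM at 0 h, 19.5 and 22.9 at 3 h and 38.2 and 26.5 at 24 h, and WT 9.21 to 16.6. It rose by 1.28 ± 0.26 at 3 h (edgeR adjusted p = 0.00765) and 1.94 ± 0.26 at 24 h (edgeR adjusted p = 6.84e-05), the former call lost without 0 h replicate 1 (0.0694). At 0 h the PAX7 region was lower than WT in ALX1FV ALX4-, with 1.56 and 1.9 CPM (log2 difference −2.90, edgeR adjusted p = 2.74e-06). It was also called lower at 0 h in MSX1FNV (−1.550, edgeR adjusted p = 0.0107) and ALX1FV (−1.505, edgeR adjusted p = 0.0479). At TFAP2A itself, the start-site region had 99.6 and 97.3 CPM in WT at 0 h and 67.7 to 113 over all 36 libraries, and was not called at either time.

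TBX2, a T-box repressor gene, had its region (chr17:61400374-61401160) at 12.8 and 17.3 CPM at 0 h, 19.3 and 17.2 at 3 h and 7.31 and 8.06 at 24 h in TWIST1FV, against 29.9 to 45.2 in WT. It fell by 0.97 ± 0.28 at 24 h (edgeR adjusted p = 0.027). The TBX2 call was lost with library-size scaling (0.0555) and without 0 h replicate 2 (0.281) or either 24 h library (0.15 and 0.103 for replicates 1 and 2). At 0 h it was lower than WT in PRRX1FV, with 2.57 and 3.76 CPM (−3.47, edgeR adjusted p = 8e-06), and in MSX1FNV, with 3.49 and 0.713 (−4.23, edgeR adjusted p = 1.94e-06). The TBX2 region was also called lower at 0 h in ALX1FV ALX4- (−2.066, edgeR adjusted p = 0.000404) and ALX1FV (−1.733, edgeR adjusted p = 0.0341). A region of PRRX2, a paired-related homeobox gene, rose from 2.33 and 2.97 CPM at 0 h to 6.73 and 8.71 at 24 h (1.53 ± 0.44, edgeR adjusted p = 0.0285). It lost its call without either 0 h library (0.159 and 0.0729 for replicates 1 and 2) or 24 h replicate 2 (0.123). The melanocortin receptor gene MC1R had 9.01 and 10.7 CPM at 0 h and 18.6 and 19 at 24 h (edgeR adjusted p = 0.0218), and that call was lost without any 1 of the 4 libraries: 0.214 without 0 h replicate 1, 0.0797 without 0 h replicate 2, 0.0681 without 24 h replicate 1 and 0.0838 without 24 h replicate 2.

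In the other lines, untagged WT among them, dTAGV-1 left these regions almost without calls. Whether ALX1, PRRX1 or MSX1 was lost in the tagged lines was not examined here. In WT, ALX1FV and ALX1FV ALX4-, 0 of 5164, 4881 and 4972 regions tested were called at 3 or 24 h, and DESeq2 also called 0 in each. At an unadjusted p under 0.05 edgeR had 74 higher and 145 lower at 3 h and 94 and 83 at 24 h in WT, 46 and 13, then 51 and 11 in ALX1FV, and 96 and 159, then 122 and 236 in ALX1FV ALX4-. These unadjusted counts are not calls. Among all 120860 regions tested in WT they were 2200 and 1938, then 2295 and 2028. Among 110426 in ALX1FV they were 826 and 954, then 929 and 1103. Among 122000 in ALX1FV ALX4- they were 2412 and 3167, then 3219 and 4515. Over all regions the calls were 0% in WT and ALX1FV at both times and in ALX1FV ALX4- at 3 h, and 0.00082% higher and 0.027% lower in ALX1FV ALX4- at 24 h. In PRRX1FV 0 of 4908 were called at 3 h by edgeR or DESeq2 (edgeR unadjusted 197, 96 of them higher) and 1 fell at 24 h, against 0% and 0.000827% of all regions. In MSX1FNV 0 of 4804 were called at 3 h by edgeR or DESeq2 (edgeR unadjusted 40 and 76) and 1 rose at 24 h, against 0.00179% and 0.00448% of all regions called higher. The unadjusted counts at 3 h over all regions were 2239 higher and 2488 lower of 120925 in PRRX1FV. In MSX1FNV they were 1447 and 1734 of 111631.

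Those 2 calls did not hold without single libraries. The promoter of PTBP1, a splicing regulator gene (chr19:797562-798062), had 61.7 and 59.6 CPM at 0 h, 48.1 and 42.5 at 3 h and 31.5 and 33.8 at 24 h in PRRX1FV. The fall was 0.90 ± 0.13 on the log2 scale (edgeR adjusted p = 0.000325), which became 0.911 without 24 h replicate 1 and 0.973 without 24 h replicate 2. The WT libraries also ran from 53.1 down to 29.3. The CDPF1 region (chr22:46249732-46250561) had 14.6 and 11.8 CPM at 0 h, 16.6 and 17.5 at 3 h and 35.3 and 29 at 24 h in MSX1FNV (edgeR adjusted p = 0.0371). Its adjusted p was 0.638 without 0 h replicate 2, 0.191 without 24 h replicate 1 and 0.4 without 24 h replicate 2.

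In ALX1FV ALX4-, 0 h replicate 1 stood apart from the line's other libraries. PTBP1 had 41 CPM in it and 7.62 to 11.3 in the other 5, HNRNPR 95.7 against 47.7 to 66.2, and HNRNPL 60.3 against 31.7 to 43.2. Without 0 h replicate 2, so with that library as the only 0 h sample, 41 regions were called at 3 h and 63 at 24 h, all lower. Leaving out 3 h replicate 1 gave 1 call at 3 h. With the clone as a block, since clones pair the libraries of this line, 3 regions were called at 24 h where 0 were without it.

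Before dTAGV-1, the edited lines differed from WT. Of 5375 regions tested at 0 h, 3 were higher and 1 lower in TWIST1FV, 8 and 11 in ALX1FV, 159 and 236 in ALX1FV ALX4-, 42 and 68 in PRRX1FV, and 54 and 69 in MSX1FNV. Of all regions tested, 0.0532% and 0.0525% were called higher and lower in TWIST1FV, 0.305% and 0.222% in ALX1FV, 3.83% and 6.5% in ALX1FV ALX4-, 0.984% and 2.34% in PRRX1FV, and 1.19% and 2.13% in MSX1FNV. The 5 comparisons share the 2 WT libraries. In ALX1FV ALX4- the calls divided by position: 94 of 1202 distal regions were higher (7.82%) and 21 lower (1.75%), while 65 of 4173 near start sites were higher (1.56%) and 215 lower (5.15%). PRRX1FV had 29 higher and 10 lower in distal regions and 13 and 58 near start sites, and MSX1FNV 37 and 9, then 17 and 60.

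These directions depended on the scaling. Scaling by library size moved the median log2 difference of all regions to 0.079 in ALX1FV, 0.184 in ALX1FV ALX4-, 0.167 in PRRX1FV and 0.142 in MSX1FNV, and turned the balance of calls to 13 higher and 8 lower, 247 and 136, 80 and 33, and 78 and 45. The share of calls that were higher went from 42.1% to 61.9%, 40.3% to 64.5%, 38.2% to 70.8% and 43.9% to 63.4% in these 4 lines, and over all regions from 58% to 74.6%, 37.1% to 52.4%, 29.6% to 52.6% and 35.9% to 58.6%. Single libraries moved the counts too. In ALX1FV ALX4-, with 159 higher and 236 lower in all, 79 were higher and 288 lower without its replicate 1, and 108 higher and 66 lower without its replicate 2. The balance of calls thus turned on which library was left out. Without WT replicate 1 or 2 the total was 180 or 190. The PRRX1FV total was 26, 24, 36 and 40 without PRRX1FV replicate 1, PRRX1FV replicate 2, WT replicate 1 and WT replicate 2, with more higher than lower calls without PRRX1FV replicate 1 (14 and 12) or WT replicate 1 (19 and 17). MSX1FNV, with 54 higher and 69 lower in all, had 54 and 33 without its replicate 1 and 6 and 15 without its replicate 2, and gave 31 and 55 calls without WT replicate 1 and WT replicate 2. ALX1FV gave 17 higher and 15 lower without ALX1FV replicate 2, 2 and 0 without WT replicate 1, and 5 and 1 without WT replicate 2. TWIST1FV gave 0 without TWIST1FV replicate 1, WT replicate 1 or WT replicate 2.

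**Figure D5:**
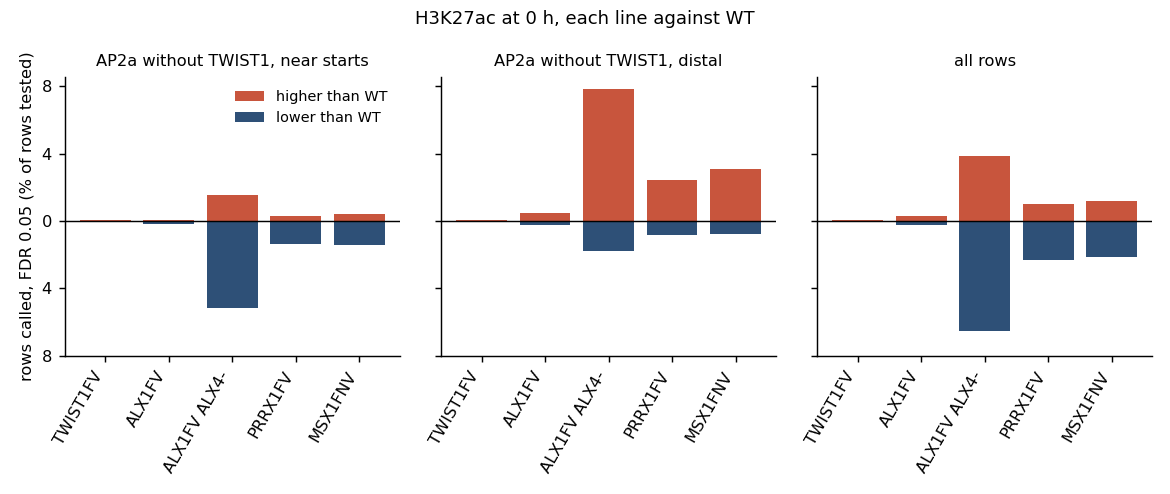
Regions called higher or lower than WT at 0 h, as a percentage of those tested (y), in each edited line (x), for AP2a regions without TWIST1 near start sites and in distal positions and for all regions. In ALX1FV ALX4- distal regions are more often higher (7.82%) than lower (1.75%) and those near start sites more often lower (5.15%) than higher (1.56%), with TMM scaling.

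The homeobox genes DLX2 and LHX8 had regions almost without H3K27ac in WT that were high in ALX1FV ALX4-. At DLX2 (chr2:172099921-172100421) WT had 0.246 and 0.905 CPM at 0 h, ALX1FV 9.23 and 1.13, and ALX1FV ALX4- 23.8 and 23.3, a log2 difference from WT of 5.37 ± 0.65 for the last (edgeR adjusted p = 2e-07). At LHX8 (chr1:75135151-75135651) WT had 0.246 and 0.905 CPM, ALX1FV 7.25 and 0.563, and ALX1FV ALX4- 15.8 and 12.9 (4.66 ± 0.68, edgeR adjusted p = 5.6e-06). The 2 ALX1FV clones disagreed at both regions and at all 3 times, one near WT and the other above it, and the ALX1FV call at DLX2 (edgeR adjusted p = 0.0318) was lost without ALX1FV replicate 1 (0.788), WT replicate 1 (0.387) or WT replicate 2 (0.114). An intronic region of PIP5K1C (chr19:3683530-3684304) had 4.42 and 5.89 CPM in WT, 20.9 and 20.3 in ALX1FV, 27.7 and 29.5 in ALX1FV ALX4-, 20 and 18.9 in PRRX1FV and 19.9 and 21.9 in MSX1FNV. For ALX1FV the log2 difference was 2.00 ± 0.26 (edgeR adjusted p = 4.99e-05). In TWIST1FV it had 8.43 and 6.9 CPM at 0 h, 16.5 and 14.2 at 3 h and 25.3 and 27.4 at 24 h, so it reached the range of the homeodomain lines at 24 h.

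Other regions were lower than WT in several lines at 0 h. In an intron of HPSE2, a heparanase-related gene (chr10:99232409-99232909), WT had 23.3 and 29 CPM, ALX1FV ALX4- 1.11 and 1.36 (−4.41 ± 0.61, edgeR adjusted p = 2.07e-06), PRRX1FV 1.03 and 1.25, and MSX1FNV 1.74 and 1.19. TWIST1FV had 2.04 and 8.45 CPM and ALX1FV 10.9 and 0.563, so both were below WT and differed between their own libraries. The HPSE2 region was called lower in ALX1FV (−2.24 ± 0.52, edgeR adjusted p = 0.0318), a call lost without ALX1FV replicate 2 (0.176), WT replicate 1 (0.166) or WT replicate 2 (0.253) and with DESeq2 (0.376). In TWIST1FV it did not pass (edgeR adjusted p = 0.0619). An exon of SHOX2, a homeobox gene (chr3:158103070-158103855), had 16.5 and 21 CPM in WT, 0.513 and 1.63 in PRRX1FV, 0.349 and 0.476 in MSX1FNV and 1.34 and 2.45 in ALX1FV ALX4-. The edgeR adjusted p was 6.73e-07 for PRRX1FV and 1.33e-07 for MSX1FNV. TWIST1FV, with 6.4 and 11.7, and ALX1FV, with 14.8 and 6.75, kept more of the mark. SHISA6 (chr17:11244727-11245610) was higher in PRRX1FV, with 11.8 and 10 CPM against 1.47 and 2.41 in WT (2.50 ± 0.40, edgeR adjusted p = 0.00015).

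TWIST1FV differed from WT at 4 of the regions at 0 h. A pair of neighbouring regions at ISLR2, a neuronal leucine-rich repeat gene, had 17.2 and 7.62 CPM (chr15:74128023-74128523) and 18.6 and 7.38 CPM (chr15:74128581-74129482) against 1.36 to 2.95 in WT. A region of TOX, a high-mobility-group gene, had 2.91 and 3.33 CPM against 15.4 and 16 (edgeR adjusted p = 0.0102, and 0.115 to 0.178 without any 1 of the 4 libraries). The ISLR2 calls, with edgeR adjusted p of 0.0257 and 0.0291, were lost without TWIST1FV replicate 1 (0.56 and 0.654), WT replicate 1 (0.236 and 0.454) or WT replicate 2 (0.448 and 0.252).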

How the data were processed

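H3K27ac was read from 6 deposited tables of raw counts per open-chromatin region, 1 per line, which the authors made from ChIP-seq reads. Peak lists were read as the authors deposited them, with −log10 p and q, a score and fold enrichment per peak. Per the submitters' processing notes the tools included Bowtie2 2.4.1, MACS2 2.2.7.1, SAMtools 1.10 and deepTools 3.5.0, and the build was hg38. With regions of low count left out, at least 76.7% of the counts in each library were even. This bears on what 1 count stands for, and so on the depths, which are given as deposited. The Wilson intervals are on shares of regions. They do not use these counts and leave out the spread between libraries. Spike-in reads were not used here.

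Counts were fitted with edgeR 4.0.16 (quasi-likelihood, TMM, filterByExpr, R 4.3.3), 1 fit of 6 libraries per line, 1 of the 12 libraries at 0 h and 1 of TWIST1FV with WT. P-values were adjusted over all regions tested by the Benjamini-Hochberg method. CPM values are TMM-scaled over all 36 libraries, and log2 values used a prior count of 2. Log2 fold changes are the fitted values. Each SE was derived from the test, as the absolute log2 fold change divided by the square root of its F statistic. Any base of overlap counted, and gene models were GENCODE 44. Summit windows were read from the hg38 reference with pysam 0.24.0. The fit was tested on simulated data.

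The members of the set and the gene lists were chosen with earlier results of these data known. Named regions were the 8 per direction with the largest change in TWIST1FV at 24 h, the 4 per direction at 3 h and the 2 per direction in each other comparison. They had to be called, above the median level of all tested regions and moved alike in both replicates. The regions highest in WT and in AP2a, and those nearest to list genes, were also named. Replicate numbers pair libraries by clone in ALX1FV, ALX1FV ALX4- and PRRX1FV, where same-numbered libraries deviated from their group means with correlations of 0.207 to 0.216, 0.0207 to 0.0333 and 0.0145 to 0.0176. Alternatives were DESeq2 1.42.0, library-size scaling, no filter, each library left out, the replicate block and stricter members.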

Additional observations from a re-analysis of the deposited data

Results flagged for a closer look

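The change with dTAGV-1 was compared between TWIST1FV and WT by an edgeR interaction test with adjustment over all regions, and it differed at 36 AP2a regions without TWIST1 at 3 h and 94 at 24 h. The values that follow are the TWIST1FV log2 change minus the WT log2 change.

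At 3 h the difference was 3.60 at APBA2 (edgeR adjusted p = 0.0131), −1.50 at RHOU (edgeR adjusted p = 0.00329) and −1.45 at SEMA5A (edgeR adjusted p = 0.0324). The APBA2 difference exceeded the TWIST1FV rise of 2.21, so part of it came from a fall in WT. That region had only 4.31 CPM per kb in WT at 0 h. Among list genes it was 1.02 at KCTD15 (edgeR adjusted p = 0.0108) and 1.45 at PAX7 (edgeR adjusted p = 0.0297). The test did not pass at CRMP1 (edgeR adjusted p = 0.424), GADL1 (0.11), the nearer HS6ST1 region (0.101) or SGO1 (0.186).

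At 24 h the regions higher in TWIST1FV relative to WT were PDE1C with 2.85 (edgeR adjusted p = 1.38e-07), SFTA2 with 2.49 (0.000191), the farther HS6ST1 region with 2.70 (0.000777), LYZL2 with 2.55 (0.0131), EXTL3 with 2.85 (0.0205) and DHFR2 with 2.51 (0.0495). PAX7 differed by 2.04 (edgeR adjusted p = 0.000341) and KCTD15 by 1.23 (0.000591). On the lower side RHOU differed by −1.99 (edgeR adjusted p = 3.29e-05), TBX2 by −1.18 (0.0123), ARHGAP29 by −1.97 (0.0126) and MAP1LC3C by −1.72 (0.0199). The test did not pass at MCTP2, the nearer HS6ST1 region, MC1R (edgeR adjusted p = 0.442) or PRRX2 (0.306). Nor did it pass at LAMA1 (edgeR adjusted p = 0.0644), SGO1 (0.0794), MGLL (0.0909), RNF213 (0.117) or TAFA5 (0.848).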

How the results depend on the processing

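No named region with a call reversed under any alternative. Library-size scaling turned the median log2 difference from WT at 0 h from −0.096 to 0.068 in ALX1FV ALX4- and from −0.124 to 0.030 in PRRX1FV, and the balance of calls from lower to higher in ALX1FV, ALX1FV ALX4-, PRRX1FV and MSX1FNV. Of the values for named regions, 153 of 200 kept their call in TWIST1FV at 24 h, 56 of 70 at 3 h, 9 of 16 at other times and 247 of 324 at 0 h against WT. DESeq2 gave 87 calls at 3 h and 181 at 24 h, library-size scaling 129 and 310, and no filter 68 and 169.

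With the replicate number as a block, TWIST1FV had 334 calls at 3 h and 493 at 24 h, and the difference from WT 157 and 215. There the numbers share no clone or stated batch and the correlations of same-numbered libraries were 0.0676 to 0.128. In the lines whose numbers pair clones, the block changed 0 to 3 calls in ALX1FV ALX4- at 24 h and no other count beyond 1.5 times. It ended the PAX7 call in ALX1FV at 0 h (edgeR adjusted p = 0.0577).

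Leaving out 1 library at a time, counts ranged from 40 to 113 in TWIST1FV at 3 h and 116 to 180 at 24 h, 0 to 41 and 0 to 63 in ALX1FV ALX4-, and 0 to 1 in PRRX1FV and MSX1FNV at 24 h. At 0 h against WT they ranged from 0 to 3 in TWIST1FV, 2 to 32 in ALX1FV, 174 to 367 in ALX1FV ALX4-, 24 to 40 in PRRX1FV and 21 to 87 in MSX1FNV. The difference between TWIST1FV and WT ranged from 10 to 40 at 3 h and 51 to 76 at 24 h. The WT median level ranged from 2.340 to 2.351.

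Stricter members hold fewer regions, so their counts are lower by construction. With AP2a −log10 q of at least 10 in both lists, TWIST1FV had 34 and 77 calls, the difference from WT 12 and 36, and the 0 h comparisons 2, 9, 179, 51 and 49 (TWIST1FV, ALX1FV, ALX1FV ALX4-, PRRX1FV, MSX1FNV). With no TWIST1 peak in any of the 6 other lists, chosen after seeing the data, the counts were 45 and 119, 19 and 46, and 11, 237, 64 and 77 for the last 4 lines. With the summit inside the region, also chosen after seeing the data, TWIST1FV had 2 at 0 h. The single calls in PRRX1FV and MSX1FNV became 0 without the filter, with the summit inside, or with no TWIST1 within 500 bp, and in MSX1FNV also at −log10 q of 10.

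The WT median log2 CPM of 2.345 became 2.286 with a prior count of 0.5, 2.259 with library-size scaling, 2.049 with no TWIST1 within 500 bp and 2.247 with the summit inside. The share near start sites was 70.23% within 500 bp, 80.73% within 2500 bp, 83.07% for the stronger AP2a and 72.45% with the summit inside. The palindrome share was 29.61% within 50 bp of the summit, 81.38% with the longer spacers and 44.25% with the summit inside. The share in other TWIST1 lists was 26.92% by TWIST1 summit and 31.08% with no TWIST1 within 500 bp. The cause of these shifts was not tested. With 2 libraries per group, changes at regions of a few CPM had low precision.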
